A study of Mus musculus with 18 samples.

Results

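The genes described here are 10 genes that mark differentiating spermatogonia or the entry of germ cells into meiosis: Stra8, Kit, Sohlh1, Sohlh2, Dmrtb1, Uchl1, Meioc, Ythdc2, Nanos3 and Prdm1. They were chosen by name and found through their NCBI gene numbers, and all 10 are among the 22657 genes of the RNA-seq table. The samples were testes of ICR mice, an outbred strain, cultured for 48 h in DMEM/F12 with fetal bovine serum, and there were 18 samples in 6 groups of 3. A0, A10 and A50 were testes of mice that had no busulfan, cultured with 0, 10 or 50 μg/mL AOS (alginate oligosaccharides, short sugar chains made from the alginate of brown seaweed). Mice of the groups B0, BA10 and BA50 had been injected once with busulfan at 40 μg per g body weight, and their testes were cultured with the same AOS levels. Busulfan is an alkylating anti-cancer drug that damages dividing germ cells. The injection was given at 3 weeks of age and the testes were collected 2 weeks later, together with those of the untreated mice. All 6 groups were therefore cultured tissue, and A0 is a cultured control, not fresh testis. The study's methods give several testes per treatment and repeated cultures, but the labels do not tie a sample to an animal, so p-values measure the spread between these samples.

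Values are FPKM, sequenced fragments scaled by transcript length and library size, which allows levels of different genes to be set side by side. The sum of a sample's FPKM lay between 463970 and 511274, and 14291 to 15040 genes per sample reached 1 FPKM. The number of reads is unknown. Pearson's r across genes between samples of a group was 0.929 to 0.988. A10 replicate 3, BA10 replicate 2 and BA50 replicate 1 had r under 0.97 with both other samples of their groups. Calls that change without these 3 samples are given with and without them.

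In the testis, spermatogonial stem cells give rise to progenitors, and retinoic acid drives these to become differentiating spermatogonia that carry the receptor KIT. SOHLH1 and SOHLH2 are helix-loop-helix transcription factors of this step, DMRTB1 (DMRT6) acts at the passage from mitotic spermatogonia to meiosis, and NANOS3 and PRDM1 are better known from earlier germ cells. STRA8, a gatekeeper of meiosis, is induced by retinoic acid, and MEIOC with the RNA helicase YTHDC2 keeps cells in the meiotic programme by acting on mitotic transcripts.

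On GRCm38 with the GENCODE M21 annotation all 10 are protein-coding genes. Stra8 (NCBI gene 20899) is at chr6:34920163-34939344 on the plus strand, Sohlh1 (227631) at chr2:25842995-25847248 on the minus strand, Sohlh2 (74434) at chr3:55182028-55209957 on the plus strand and Meioc (268491) at chr11:102663716-102682237 on the plus strand. Kit (16590) is at chr5:75574916-75656722 and Uchl1 (22223) at chr5:66676091-66687234, both on the plus strand, and Dmrtb1 (56296) is at chr4:107676290-107684230 on the minus strand. Uchl1 is overlapped on the other strand by Uchl1os. The library description does not state that strand was kept, so reads of Uchl1 and Uchl1os may not be told apart.

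Upstream sequences are shown for 3 genes that fell with busulfan at every AOS level, Sohlh1, Sohlh2 and Meioc. Each is the RefSeq stretch of GRCm38.p6 that ends before the start RefSeq lists, written 5′ to 3′ on the gene's strand, without bases that GENCODE places in an exon. The Sohlh1 stretch is chr2:25847249-25847498 on the minus strand, the Sohlh2 stretch chr3:55181794-55182027 on the plus strand (16 bases next to the start were left out) and the Meioc stretch chr11:102665335-102665584 on the plus strand. The Meioc stretch lies inside the gene as GENCODE extends it, outside its exons, because RefSeq lists a later start. Capitals mark the letters CANNTG (the E-box, read by helix-loop-helix factors) and AGGTCA (a half-site read by nuclear receptors) on either strand.
Sohlh1: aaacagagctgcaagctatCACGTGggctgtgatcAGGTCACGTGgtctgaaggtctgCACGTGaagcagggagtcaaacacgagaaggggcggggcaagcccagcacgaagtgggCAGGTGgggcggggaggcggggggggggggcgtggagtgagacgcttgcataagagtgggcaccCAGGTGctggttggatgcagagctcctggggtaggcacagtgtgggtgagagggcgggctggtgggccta
Sohlh2: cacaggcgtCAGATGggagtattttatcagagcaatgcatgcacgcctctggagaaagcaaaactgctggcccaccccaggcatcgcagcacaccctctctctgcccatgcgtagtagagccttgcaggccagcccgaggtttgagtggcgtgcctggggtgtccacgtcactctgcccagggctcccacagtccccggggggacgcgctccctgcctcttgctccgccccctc
Meioc: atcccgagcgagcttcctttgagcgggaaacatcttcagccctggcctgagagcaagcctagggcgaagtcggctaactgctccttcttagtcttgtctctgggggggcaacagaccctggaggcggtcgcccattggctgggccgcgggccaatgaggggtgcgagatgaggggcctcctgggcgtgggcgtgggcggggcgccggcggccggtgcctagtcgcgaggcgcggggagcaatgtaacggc
Windows of 250 bases before the start were listed for 9 of the 10 genes, some with more than 1 start, and 27025 genes had such a window in all. The Sohlh1 window held 5 E-boxes, of which 3 read CACGTG, and 1 AGGTCA, which shares 2 letters with a CACGTG. The letters CACGTG stood in 6.05% of all windows, CANNTG in 66.0% and AGGTCA in 13.8%. The Sohlh2 window held 1 E-box. The Meioc window held no E-box and no AGGTCA but 2 matches to CCAAT, which 34.5% of all windows held. The Stra8 window, which GENCODE places inside an exon of Stra8 and which is not printed for that reason, held 2 matches to AGGTCA, 4 to CCAAT and no E-box. The Uchl1 window held none of these letters and no GGGCGG, which 32.9% of all windows held. These matches describe the letters of the windows, and binding was not measured.

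The first question was how the genes differed between testes of mice with and without busulfan. At all 3 AOS levels the transcripts of Stra8, Sohlh1, Sohlh2, Meioc and Ythdc2 were lower after busulfan, with every busulfan sample below every untreated sample. How many of all genes separate in this way, or between single groups, was not counted. Stra8, Sohlh1 and Sohlh2 were at most 1.32 FPKM in any busulfan sample, whereas Meioc and Ythdc2 remained readily measurable. Kit and Dmrtb1 were lower by less, and Uchl1 had the same mean with and without busulfan. Nanos3 and Prdm1 were under 1 FPKM in all 18 samples. In bulk tissue a smaller number of cells of a type and less RNA per cell cannot be told apart.

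**Figure D1:**
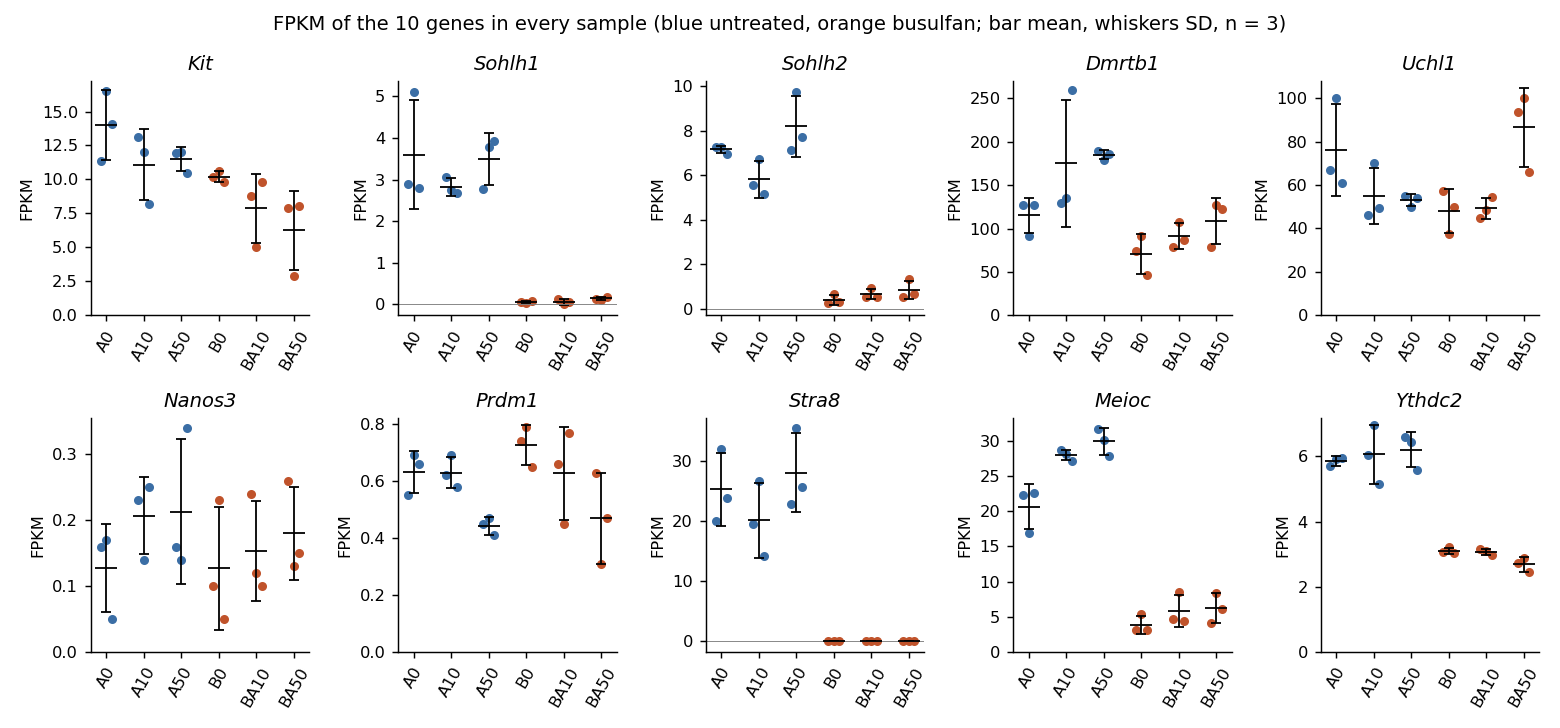
FPKM (vertical axes, linear, a separate scale for each gene) of the 10 genes in the 6 groups (horizontal axes), where points are samples, the bar is the mean and whiskers are the SD of 3 samples. Stra8, Sohlh1, Sohlh2, Meioc and Ythdc2 form a high untreated and a low busulfan set that do not overlap, while the highest Uchl1 values are in A0 replicate 2 (100.08 FPKM) and BA50 replicate 2 (99.98 FPKM).

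The 18 samples entered 1 limma fit of log2(FPKM + 1), with Benjamini-Hochberg adjustment over the 15790 genes that had at least 1 FPKM in at least 3 samples, and a gene was called at adjusted p under 0.05. Of the 10 genes 8 entered the test. Stra8, Sohlh1 and Sohlh2 did so only through the untreated samples, so that their difference is partly built into the filter. For comparison, 13.8% of all genes tested were called between B0 and A0, 12.3% lower and 1.47% higher. Of the 8 genes 5 were lower and none was higher. Between BA10 and A10, 6 of the 8 were lower, with 18.9% of all genes called. Between BA50 and A50, 6 were lower and 1 was higher, with 19.9% of all genes called. Averaged over the AOS levels 7 of the 8 were lower, where 38.1% of all genes were called, 24.8% lower and 13.3% higher. Changes on this scale are smaller than those in FPKM for genes near or under 1 FPKM. With a pseudocount of 0.1 the averaged changes below were -7.53 for Stra8, -4.21 for Sohlh1 and -3.37 for Sohlh2.

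Markers of other tissues also differed in B0, which enters both the busulfan and the AOS comparisons. The sum of 6 adipocyte genes was 196 to 804 FPKM in B0, 62.4 to 84.6 in A0, 67.8 to 122 in BA10 and 101 to 138 in BA50, and all 6 were called higher in B0 than in A0. The sum of 4 simple epithelium genes was 69.2 to 179 FPKM in B0, 24.8 to 43.9 in A0, 16.4 to 27.9 in BA10 and 19.7 to 28.6 in BA50, and 3 of the 4 were called higher in B0. The part of these tissues in the values of the 10 genes was not tested.

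Among the spermatogonial genes, Sohlh1 was 2.90, 5.11 and 2.79 FPKM in A0, 3.07, 2.74 and 2.67 in A10 and 2.78, 3.77 and 3.93 in A50 (replicates 1, 2 and 3 in this order throughout). After busulfan it was 0.05, 0.04 and 0.09 FPKM in B0, 0.13, 0 and 0.05 in BA10 and 0.14, 0.11 and 0.19 in BA50. The groups were far apart: the mean of the 9 busulfan samples was 2.69% of that of the 9 untreated samples. The log2 change was -2.08 (SE 0.16, limma adjusted p = 4.41e-07) in B0 against A0, -1.85 in BA10 against A10 and -1.96 in BA50 against A50. Averaged over AOS levels it was -1.97 (SE 0.09, limma adjusted p = 3.58e-10).

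Sohlh2, whose product forms a pair with SOHLH1, was 7.25, 7.27 and 6.97 FPKM in A0, 5.57, 6.74 and 5.14 in A10 and 7.12, 9.75 and 7.71 in A50. In busulfan testes it was 0.27, 0.67 and 0.29 FPKM in B0, 0.55, 0.92 and 0.53 in BA10 and 0.53, 1.32 and 0.68 in BA50. Replicate 2 was the highest of each busulfan group, and the busulfan mean was 9.07% of the untreated mean. Its log2 change was -2.54 (SE 0.17, limma adjusted p = 9.45e-08) without AOS and -2.30 (SE 0.10, limma adjusted p = 1.23e-10) averaged over AOS levels.

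Kit, which encodes the receptor of stem cell factor, had 11.36, 16.48 and 14.09 FPKM in A0, 13.11, 12.05 and 8.16 in A10 and 11.93, 12.04 and 10.46 in A50. With busulfan the values were 10.15, 10.65 and 9.82 FPKM in B0, 8.79, 5.02 and 9.82 in BA10 and 7.88, 2.91 and 8.02 in BA50. Kit thus kept 66.6% of its untreated mean, and the ranges of the 9 untreated and 9 busulfan samples overlapped. Kit differed on the log2 scale by -0.40 (SE 0.29, limma adjusted p = 0.451) in B0 against A0 and -0.47 (limma adjusted p = 0.28) in BA10 against A10, and neither was called. Kit was called lower in BA50 against A50 (-0.88, SE 0.29, limma adjusted p = 0.0445) and in the average (-0.58, SE 0.17, limma adjusted p = 0.0124). Without BA50 replicate 2 the change in BA50 was -0.48 (limma adjusted p = 0.169). That call was also lost without any of the A50 samples (-0.84 to -0.94, limma adjusted p from 0.0756 to 0.12) and in a limma fit of the 2 groups alone (adjusted p = 0.115).

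Kit is also made by Leydig cells, mast cells and melanocytes, and markers of these cells varied. The 6 mast cell genes summed to 15.3 FPKM in A0 replicate 2, where Kit was highest, and to between 0.23 and 3.24 FPKM in the other 17 samples. Sums of the 8 Leydig cell genes were 708 to 1170 FPKM in untreated and 937 to 2290 FPKM in busulfan samples. Sums of the 4 melanocyte genes were 4.54 to 12.1 FPKM in untreated and 3.67 to 8.73 FPKM in busulfan samples. In 5 of the 6 groups the sample with the lowest Kit also had the lowest sum of the 8 macrophage genes, as in A10 replicate 3 (146 FPKM), BA10 replicate 2 (197 FPKM) and BA50 replicate 2 (127 FPKM), and B0 was the exception. Macrophages are not among the cells named above, and this match was not planned. The sum of the 5 endothelial cell genes was also lowest in these 3 samples of their groups (52.1, 49.1 and 35.5 FPKM), though not in the A50 sample with the lowest Kit. The part of any of these cell types in the Kit values was not tested.

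Dmrtb1 was the most abundant of the 10 genes, with 126.71, 91.94 and 126.61 FPKM in A0, 129.82, 134.58 and 259.14 in A10 and 188.87, 179.22 and 185.96 in A50. In busulfan testes it was 74.63, 91.13 and 46.09 FPKM in B0, 78.74, 108.06 and 86.38 in BA10 and 78.53, 126.67 and 122.80 in BA50. At each AOS level every busulfan sample was below every untreated sample, and the busulfan mean was 57.1% of the untreated mean. The averaged log2 change was -0.80 (SE 0.16, limma adjusted p = 0.00127). Among the separate AOS levels only BA10 against A10 was called (-0.87, SE 0.28, limma adjusted p = 0.0439). That call was lost without A10 replicate 3, which had the highest value of all (-0.55, limma adjusted p = 0.208), without BA10 replicate 1 or 3 (limma adjusted p = 0.143 and 0.107), and in a limma fit of the 2 groups alone (adjusted p = 0.149). B0 against A0 gave -0.74 (limma adjusted p = 0.108) and BA50 against A50 gave -0.78 (limma adjusted p = 0.0656). The latter was called in the fit of the 2 groups alone (adjusted p = 0.0365) and with quantile normalization (0.0257). Without the 3 samples with r under 0.97, B0 against A0 was called (-0.74, limma adjusted p = 0.022) and BA10 against A10 was not (-0.67, limma adjusted p = 0.0945). The share left after busulfan was thus 57.1% for Dmrtb1 and 0.141% for Stra8. A10 replicate 3 also had the largest sum of the 10 pachytene and later spermatocyte genes, 2990 FPKM against 1130 to 2400 FPKM in the other untreated samples. Most of this sum was Ldhc (1827.77 FPKM). Piwil1, Ccna1 and Mybl1 were not highest in this sample among the untreated ones, while the other genes of the list were. The part of spermatocytes in the Dmrtb1 values was not tested.

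Uchl1 encodes a ubiquitin hydrolase of spermatogonia that is also abundant in neurons. Its values were 66.90, 100.08 and 60.88 FPKM in A0, 46.07, 69.93 and 49.35 in A10, and 55.06, 49.93 and 53.91 in A50. After busulfan they were 57.23, 37.24 and 49.69 FPKM in B0, 44.81, 48.61 and 54.38 in BA10 and 93.56, 99.98 and 66.07 in BA50. The means of the 9 untreated and the 9 busulfan samples were both 61.3 FPKM. B0 lay below A0 without overlap, the A10 and BA10 samples overlapped, and BA50 lay above A50 without overlap. On the log2 scale Uchl1 differed by -0.64 (SE 0.21, limma adjusted p = 0.0625) in B0 against A0, -0.14 in BA10 against A10 and 0.68 (SE 0.21, limma adjusted p = 0.0362) in BA50 against A50, the only call toward higher values among the 8 genes. Without A0 replicate 2 the change in B0 was -0.42 (limma adjusted p = 0.246). The averaged change was -0.03 (95% interval -0.30 to 0.23). The BA50 call was lost when any A50 sample, BA50 replicate 1 or BA50 replicate 2 was left out, with adjusted p from 0.0767 to 0.116, and when the 3 samples with r under 0.97 were left out (0.61, limma adjusted p = 0.102). Summed FPKM of the 6 neuron and Schwann cell genes was 32.9 to 41.7 in A0, 22.5 to 29.6 in A50, 16.6 to 39.1 in B0 and 21.3 to 47.9 in BA50. Most of this sum was Tubb3, as in A0 replicate 1 (34.43 of 37.1 FPKM) and BA50 replicate 2 (44.32 of 47.9 FPKM). Only 2 of the 6 genes passed the filter, so the sum is no measure of nerve tissue as a whole. Its part in the Uchl1 values was not tested.

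Nanos3, an RNA-binding factor of germ cell survival, had 0.05 to 0.34 FPKM in untreated and 0.05 to 0.26 FPKM in busulfan samples. Prdm1, a transcription factor of primordial germ cells and of plasma cells, had 0.41 to 0.69 FPKM in untreated and 0.31 to 0.79 FPKM in busulfan samples. Neither reached the filter in any sample. In a fit of all genes with no filter the averaged change was -0.04 for Nanos3 and 0.03 for Prdm1, and neither was called. The data thus hold hardly any signal for 2 of the 10 genes.

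Among the genes of meiotic entry, Stra8 was 20.04, 31.90 and 23.88 FPKM in A0, 19.46, 26.72 and 14.16 in A10 and 22.91, 35.41 and 25.66 in A50. In the busulfan testes it was listed at 0, 0 and 0.02 FPKM in B0, 0.05, 0.10 and 0 in BA10 and 0.12, 0 and 0.02 in BA50. No busulfan sample was above 0.12 FPKM and no untreated sample was below 14.16 FPKM. In log2 the change was -4.68 (SE 0.20, limma adjusted p = 2.03e-09) in B0 against A0, -4.29 in BA10 against A10 and -4.77 in BA50 against A50, the largest of the 8 genes in each comparison. Averaged over AOS levels it was -4.58 (SE 0.12, limma adjusted p = 1.06e-12).

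Meioc was 22.32, 16.90 and 22.55 FPKM in A0, 28.63, 28.09 and 27.15 in A10 and 31.65, 30.17 and 27.87 in A50. After busulfan it was 3.19, 5.38 and 3.07 FPKM in B0, 4.74, 8.51 and 4.38 in BA10 and 4.17, 8.45 and 6.10 in BA50. The busulfan mean was 20.4% of the untreated mean, and as for Sohlh2 replicate 2 was the highest of each busulfan group. The log2 change was -2.17 (SE 0.24, limma adjusted p = 1.72e-05) in B0 against A0 and -2.14 (SE 0.14, limma adjusted p = 1.1e-08) in the average.

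Ythdc2, the partner of MEIOC, is also transcribed outside the germ line. It had 5.70, 5.93 and 5.95 FPKM in A0, 6.05, 6.96 and 5.16 in A10 and 6.60, 6.44 and 5.58 in A50. With busulfan it had 3.07, 3.21 and 3.03 FPKM in B0, 3.15, 3.10 and 2.97 in BA10 and 2.74, 2.88 and 2.44 in BA50. It thus kept 48.9% of its untreated mean with little spread within groups. The log2 change was -0.74 (SE 0.10, limma adjusted p = 8.77e-05) in B0 against A0 and -0.83 (SE 0.06, limma adjusted p = 1.93e-08) in the average.

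An exact two-sided permutation test of single genes, over the 8000 arrangements of busulfan labels within AOS levels, gave p = 0.00025 for Stra8, Sohlh1, Sohlh2, Dmrtb1, Meioc and Ythdc2, the smallest it can give. The same exact test gave p = 0.00175 for Kit and p = 0.867 for Uchl1. After Benjamini-Hochberg adjustment it called 39.2% of all genes tested. Stra8, Sohlh1 and Sohlh2 entered only through the untreated samples, so their separation is partly built into the filter and this p is no added support for them. With 3 samples against 3, an exact test cannot give a p under 0.1, even where the groups do not overlap. The separate AOS levels were therefore judged by the limma fit.

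**Figure D2:**
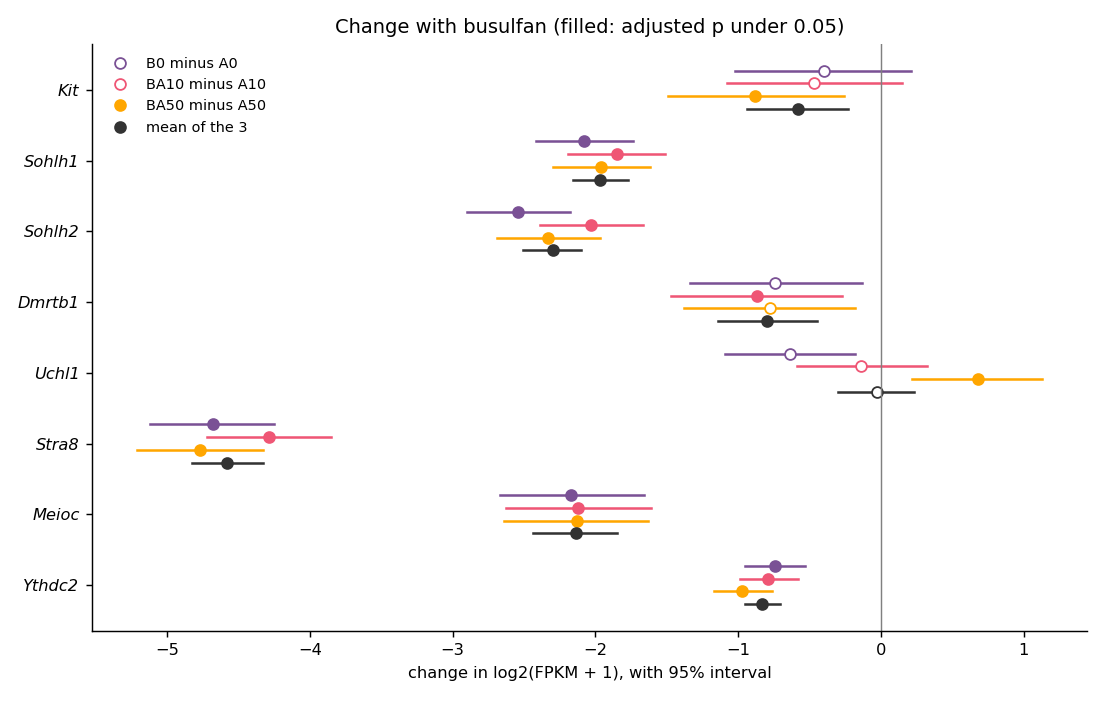
Change in log2(FPKM + 1) with busulfan (horizontal axis) for the 8 genes tested (vertical axis), where points are limma estimates, lines are 95% intervals and filled points had an adjusted p under 0.05. Stra8 lies farthest to the left in all 4 comparisons, near -4.58 in the average, and Uchl1 is on both sides of 0.

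The levels of the 10 genes in A0 ran from Dmrtb1 (a mean of 115 FPKM, from 91.94 to 126.71) through Uchl1 (76.0 ± 21.1 FPKM, SD, n = 3), Stra8 (25.3 ± 6.05), Meioc (20.6 ± 3.20), Kit (14.0 ± 2.56), Sohlh2 (7.16 ± 0.168), Ythdc2 (5.86 ± 0.139), Sohlh1 (3.60 ± 1.31) and Prdm1 (0.633 ± 0.0737) to Nanos3 (0.127 ± 0.0666). Of these neighbours, Dmrtb1 and Uchl1 overlapped, as did Stra8 and Meioc. In B0 the order was Dmrtb1 (70.6 ± 22.8 FPKM), Uchl1 (48.1 ± 10.1), Kit (10.2 ± 0.418), Meioc (3.88 ± 1.30) and Ythdc2 (3.10 ± 0.0945), with the other 5 genes under 1 FPKM. Dmrtb1 and Uchl1 again overlapped, and so did Meioc and Ythdc2.

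The genes of the wider pathway were taken from 3 lists. Of 20 partners of differentiation and meiotic entry, all tested, 13 were lower and 1 was higher with busulfan averaged over AOS levels, and the median log2 change was -0.72, beside a median of 0.01 over all genes tested. The 3 largest changes were those of Dazl, an RNA-binding protein that licenses germ cells (-3.48, SE 0.20), Dmrt1, a transcription factor of spermatogonia and Sertoli cells (-2.51, SE 0.10), and Bhmg1, also named Meiosin, which acts with STRA8 (-2.47, SE 0.13). Dazl went from 62.9 ± 1.91 FPKM in A0 to 4.70 ± 1.5 in B0. Bhmg1 went from 6.14 ± 1.61 to 0.0733 ± 0.0208 FPKM. Bhmg1, Dmrt1, Rhox13, Dnmt3b and Nanos1, all among the lower partners, entered the test only through the untreated samples. Their difference is therefore partly built into the filter. The only partner that rose was Kitl, the ligand of KIT made by Sertoli cells (0.54, SE 0.10, limma adjusted p = 0.000409), named after its value was seen. It was 39.3 ± 6.06 FPKM in A0 and 51.7 ± 10.1 in B0. The retinoic acid receptor genes Rara and Rarg were not called, at 0.06 and 0.08, and were likewise named after their values were seen.

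Of 18 genes of early meiotic prophase, the stage after the one marked by Stra8, 17 were lower and none was higher, with a median of -1.77. Hormad1 (-3.74), Sycp3 (-3.28) and Tex12 (-2.77), proteins of the meiotic chromosome axis and of the synaptonemal complex, changed most. Of 18 genes of undifferentiated spermatogonia, 11 were tested, 4 were lower and 1 was higher, with a median of -0.27. Over all genes tested 24.8% were lower and 13.3% higher in this comparison, and nothing particular to this list is read from its counts. Lin28a (-1.92), Id4 (-1.32) and Sall4 (-1.30) had the largest changes, and Etv5, made by Sertoli cells as well, was the one that was higher (0.28), also named after its value was seen. The sum of the 10 spermatid genes was 2380 to 4940 FPKM in untreated samples, 2300 to 3390 in B0, 3820 to 6660 in BA10 and 5070 to 11000 in BA50, so that every BA50 sample was above every untreated sample. Of these 10 genes 1 was called higher in BA50 against A50, where 19.9% of all genes were called. None was called in BA50 against B0, where 0.095% of all genes were called. Hormad2, Dmc1, Mei1, Rad21l and Tex11 of the early prophase list entered the test only through the untreated samples. So did Lin28a and Sall4 of the undifferentiated list, and the difference of these genes is partly built into the filter. No list was tested as a set, and these counts are descriptions.

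**Figure D3:**
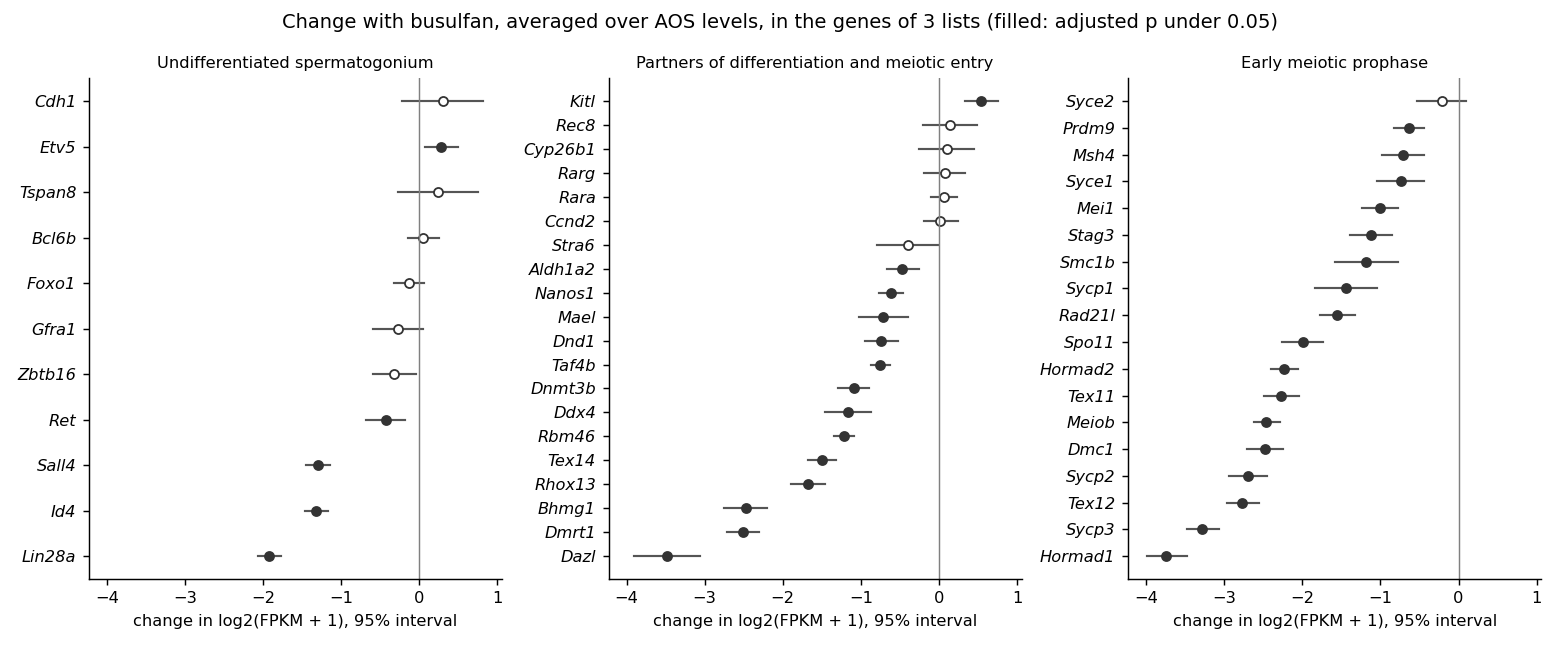
Change in log2(FPKM + 1) with busulfan averaged over AOS levels (horizontal axes) for the genes tested of 3 lists (vertical axes), with 95% intervals and filled points for an adjusted p under 0.05. The partners run from Dazl at -3.48 to Kitl at 0.54, and early prophase genes lie below 0.

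As a description over the 18 samples, the genes most like each gene were sought by Pearson's r on log2(FPKM + 1). The samples share the busulfan difference, which alone gives high r for any gene that moves with it. Stra8 was most like Tex19.1 (r = 0.999) and Mageb4 (0.998), Sohlh1 most like Trap1a (0.994) and Tex19.1 (0.993), and Sohlh2 most like Brca2 (0.992) and Nxf2 (0.991). Meioc was most like Ankrd31 and Tdrd1 (both 0.994), Ythdc2 most like Elavl2 and Haus6 (both 0.985), and Dmrtb1 most like Haus1 (0.995) and 4930544G11Rik (0.993). Kit was most like Fgd1 (0.946) and Tsc22d3 (0.945), and Uchl1 most like Ndufv1 (0.898) and Palm3 (0.827). Among the 10 genes themselves, Stra8 had r = 0.991 with Sohlh1 and 0.943 with Meioc, but 0.663 with Dmrtb1, 0.621 with Kit and 0.0734 with Uchl1. For deviations from the group means, which leave out the group differences, r was 0.542 between Stra8 and Sohlh1, -0.561 between Stra8 and Dmrtb1, 0.746 between Sohlh2 and Meioc, and -0.650 between Kit and Meioc. For the most alike genes named above, r of these deviations ran from 0.598 (Ythdc2 and Haus6) to 0.986 (Dmrtb1 with Haus1 and with 4930544G11Rik). Meioc and Kit did not run in opposite order in every group. In BA10 and BA50 the sample with the highest Meioc had the lowest Kit, as in BA50 replicate 2 (8.45 FPKM of Meioc, 2.91 FPKM of Kit). In A0 the sample with the lowest Meioc had the highest Kit. In A10 and B0 both genes ran in the same order, and in A50 the sample with the lowest Meioc also had the lowest Kit.

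The second question was whether AOS in the culture medium changed these genes, with and without busulfan. None of the 8 genes was called in any of the 4 AOS comparisons, in their average or in the difference between backgrounds. The share of all genes called was 0% for A10 against A0 and for A50 against A0, 0.0253% for BA10 against B0, 0.095% for BA50 against B0 and 0.0443% for the average. At an unadjusted p under 0.05, 15.2%, 15.6%, 5.05%, 24.3% and 33.5% of all genes passed in these 5 comparisons. A10 and A50 share the A0 samples and BA10 and BA50 share the B0 samples, so the comparisons within a background are not independent. Where 2 groups are said below not to overlap, an exact permutation test gives p = 0.1, and the share of all genes that do so was not counted.

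Dmrtb1 and Meioc had the largest averaged differences. For Meioc every A10 and A50 sample (27.15 to 31.65 FPKM) was above every A0 sample (16.90 to 22.55 FPKM), while the BA10 and BA50 samples overlapped B0. The log2 difference was 0.43 for A10, 0.53 for A50, 0.48 for BA10 and 0.56 for BA50, and 0.50 in the average (SE 0.15, limma adjusted p = 0.0657). Without BA10 replicate 2 the BA10 difference of Meioc was 0.22. For Dmrtb1 the differences were 0.54, 0.69, 0.40 and 0.65 in the same order, and 0.57 in the average (SE 0.17, limma adjusted p = 0.0687). Without A10 replicate 3 the A10 difference of Dmrtb1 was 0.21. The exact permutation test of the average, over 7056 arrangements within backgrounds, gave p = 0.00255 for Meioc and p = 0.00482 for Dmrtb1, or 0.0606 and 0.0657 after Benjamini-Hochberg adjustment over all genes. The sum of the 10 pachytene and later spermatocyte genes was 1130 to 1800 FPKM in A0, 1710 to 2990 in A10 and 2240 to 2400 in A50, and 766 to 1350 in B0, 1210 to 1830 in BA10 and 1290 to 2090 in BA50. Most of this sum was again Ldhc. The part of spermatocytes in the Meioc and Dmrtb1 values was not tested.

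Kit was lower with AOS in the average by a log2 difference of -0.42 (SE 0.18, limma adjusted p = 0.124), which was not called. In BA50 all 3 samples were below all B0 samples, with a difference of -0.72 (SE 0.29, limma adjusted p = 0.155), and without BA50 replicate 2 it was -0.32. Stra8 was at 20.1 ± 6.31 FPKM in A10 and 28.0 ± 6.57 in A50, overlapping the A0 samples. Its A10 difference of -0.33 was -0.12 without A10 replicate 3 and -0.55 without A10 replicate 2. In the busulfan samples the 95% interval of its difference was -0.38 to 0.50 for BA10 and -0.38 to 0.49 for BA50. Sohlh1 lay higher in BA50 (0.11 to 0.19 FPKM) than in B0 (0.04 to 0.09 FPKM) without overlap, a log2 difference of 0.11 that was not called. Sohlh2 differed by 0.37 (limma adjusted p = 0.191) between BA50 and B0, and by 0.20 without BA50 replicate 2. With a pseudocount of 0.1 the BA50 differences were 0.62 for Sohlh1, 0.88 for Sohlh2 and 0.38 for Stra8, and none was called. Sohlh1 and Sohlh2 remained far under the untreated values at either AOS level. Ythdc2 differed by at most 0.16 in size in the 4 comparisons.

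**Figure D4:**
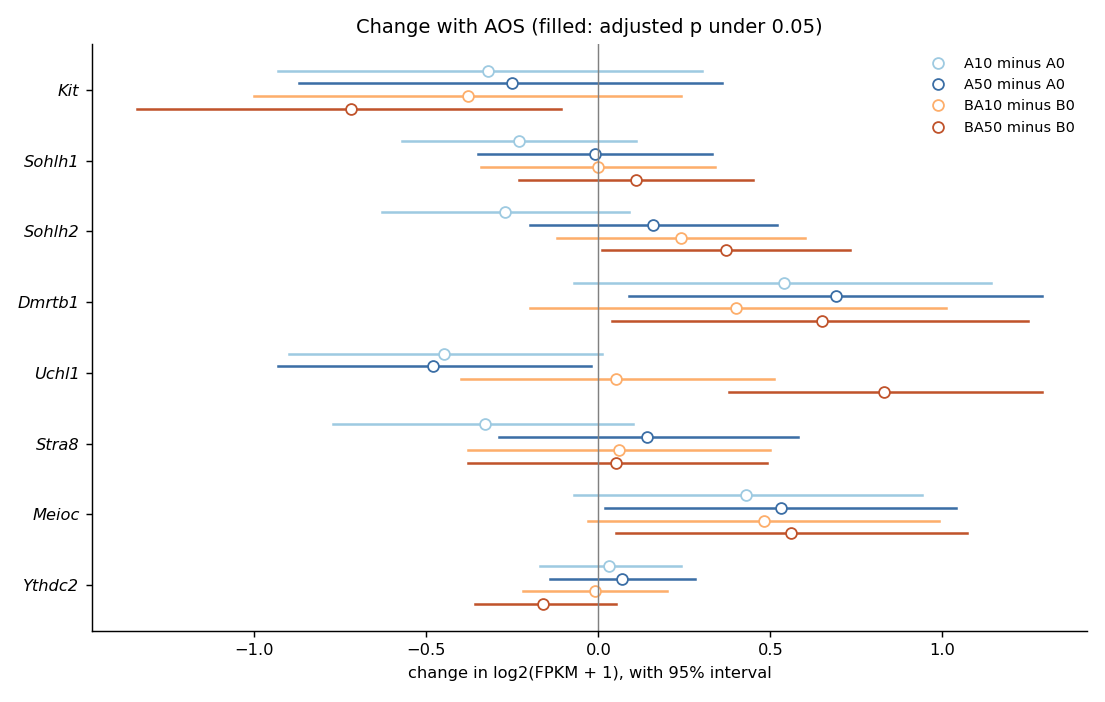
Change in log2(FPKM + 1) with AOS (horizontal axis) for the 8 genes tested (vertical axis), with limma estimates, 95% intervals and filled points for an adjusted p under 0.05. No point is filled, and Uchl1 is at -0.48 in A50 and at 0.83 in BA50.

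Uchl1 moved in opposite directions. All A50 samples were below all A0 samples (log2 difference -0.48, SE 0.21, limma adjusted p = 0.306), and all BA50 samples were above all B0 samples (0.83, SE 0.21, limma adjusted p = 0.101). The difference between these 2 changes was 1.31 (SE 0.30), with an unadjusted limma p of 0.000597 and an adjusted p of 0.432. In that comparison, and in the corresponding one at 10 μg/mL, 0% of all genes were called, while 6.28% and 3.97% had an unadjusted p under 0.05. The corresponding difference of Uchl1 at 10 μg/mL was 0.50 (SE 0.30, limma adjusted p = 0.91).

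The AOS results depended on a few samples. Without A10 replicate 3, BA10 replicate 2 and BA50 replicate 1, an alternative chosen after the data were seen, 5 of the 8 genes were called between BA50 and B0: Meioc (0.78), Dmrtb1 (0.87), Uchl1 (0.77) and Sohlh2 (0.50) higher and Kit (-0.92) lower. In that fit 31.2% of all genes were called in the same comparison. Meioc (0.49) and Dmrtb1 (0.51) were then called in the average over AOS levels and backgrounds, where 15.1% of all genes were called. This fit left 2 samples in each of A10, BA10 and BA50. It kept BA50 replicate 2, which within BA50 had the highest Meioc, Dmrtb1, Uchl1 and Sohlh2 and the lowest Kit. Without that sample alone, the BA50 differences of Kit and Sohlh2 were -0.32 and 0.20.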

How the data were processed

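The table that the authors deposited holds FPKM of whole cultured testes, with 2 decimals, for the 18 samples. The study's supplementary methods describe poly(A) libraries, SOAPaligner and RPKM, while the submitters' processing notes name HISAT, Bowtie2, RSEM and GRCm38.p5, and the table's headers say FPKM. Which pipeline made the table is not settled by these sources. FPKM is relative, so a shift in abundant genes can move all others. Reads per sample are unknown, so no counting interval was computed and a 0 was read as listed at 0. The design text of the series gives AOS in mg/kg, the sample labels in μg/mL. The labels' unit was used.

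Gene numbers were matched to symbols for 20656 of 20811 numbers. Tests used limma 3.58.1 in R 4.3.3: a linear model of log2(FPKM + 1) had a coefficient for each group, and the spread was moderated with a trend over expression (lmFit, eBayes). The fit had 12 residual and 2.56 prior degrees of freedom, and was tested on simulated data. The genes, lists, limits and tests were chosen with earlier results of these data known. From each list at most the 3 genes with the largest averaged change were named, with those named after their values were seen marked as such, and for each gene tested the 2 most alike genes. Replicate numbers in the labels were tried as a block. The same numbers deviated together, with r over 0.1 for all 3 numbers, between B0 and BA50 (r = 0.562, 0.422 and 0.138) and between BA10 and BA50 (0.353, 0.674 and 0.442), but in none of the other 13 pairs of groups, and the labels do not say that a number marks a shared culture. The block was therefore only an alternative. Other alternatives were a fit of the compared groups, a pseudocount of 0.1, other filters, scalings, limits and eBayes without trend, permutation, and each sample left out. Figures were drawn with matplotlib 3.10.9, and tables made with Python 3.11.15, pandas 2.3.3 and NumPy 2.4.6.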

Additional observations from a re-analysis of the deposited data

Results flagged for a closer look

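The Uchl1 estimates with 50 μg/mL AOS had opposite signs in testes with and without busulfan, and neither was called. The gene was flagged because every A50 sample was below every A0 sample and every BA50 sample above every B0 sample. The difference between the 2 changes was 1.31 on the log2(FPKM + 1) scale (SE 0.30), with an adjusted p of 0.432 over all genes in the limma fit. A0 replicate 2 held the highest Uchl1 value (100.08 FPKM), and without it the A50 change was -0.27 rather than -0.48 and the B0 change -0.42 rather than -0.64.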

How the results depend on the processing

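The number of the 8 genes called was recomputed under each alternative. With the replicate block it was 5, 5, 6 and 7 for B0 against A0, BA10 against A10, BA50 against A50 and the average, and the block within the 9 busulfan samples, added after seeing the data, called 0 in BA10 and BA50 against B0. The block ended the calls of Dmrtb1 in BA10 (adjusted p = 0.0607) and of Kit in BA50 (0.0565). With a mean of at least 5 FPKM, which leaves 5 genes tested, the numbers were 2, 3, 4 and 4. With adjusted p at most 0.001 and a log2 change of at least 1, they were 4 in BA50 against A50 and 4 in the average. At an unadjusted limma p under 0.05 they were 3 for A50 against A0 (15.6% of all genes), 5 for BA50 against B0 (24.3%) and 3 for the AOS average (33.5%). They were 1 for each difference between backgrounds (3.97% of all genes at 10 and 6.28% at 50 μg/mL). Nothing particular to the 8 genes is read from these numbers. The share of all genes was not recorded for the block, the mean of 5 FPKM, the stricter limits or single samples left out, so those numbers are descriptions. Leaving out single samples gave 0 to 2 for the AOS average, with Dmrtb1 called without A10 replicate 1 (adjusted p = 0.0442) and Meioc and Dmrtb1 without B0 replicate 2 or BA50 replicate 1. Leaving out the 3 samples with r under 0.97 gave 5 for BA50 against B0 (31.2% of all genes) and 2 for the AOS average (15.1%). The cause of these changes was not tested. Stra8, Sohlh1, Sohlh2, Meioc and Ythdc2 kept their direction and their calls in all busulfan comparisons under every alternative that tested them at adjusted p under 0.05. The averaged calls of Kit and Dmrtb1 held likewise, with adjusted p of at most 0.026 and 0.00356. With no filter the calls of Dmrtb1 in BA10 and of Kit in BA50 were lost (adjusted p = 0.0599 and 0.0618), and with quantile normalization those of Kit (0.0565) and Uchl1 (0.0538) in BA50. Median-ratio scaling of the samples also ended the call of Dmrtb1 in BA10 (limma adjusted p = 0.0632). No called value changed sign. Values that were not called changed sign in 68 cases, all from a size of at most 0.14 to at most 0.24, among them the averaged busulfan change of Uchl1 in 4. Unknown depth limits what can be said of values near 0.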
